A study of Homo sapiens with 6 samples.

Results

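The Hedgehog genes SHH, PTCH1, SMO, GLI1, GLI2, GLI3, HHIP, BOC and CDON were followed in aggregates of human induced pluripotent stem cells (hiPSCs). The 9 genes were taken by name as a ligand, receptors, co-receptors and GLI factors of the pathway, each matched to 1 Ensembl identifier in GENCODE 44, out of 19977 identifiers counted in every library. The cells were NCRM-1, a wild type hiPSC line, and every library came from this line. RNA was taken after 4 days in vertical wheel bioreactors from 3 samples grown in E8 medium with 10 mg/ml polyethylene glycol (PEG) and 0.1 µg/ml heparin sodium salt (HS), and from 3 samples grown in E8 alone (Control). In the culture protocol, 50% of the medium was replaced on day 2. The treatment text of the labels names PEG and heparin for all 6 samples, and the treatment field of each sample was followed. The labels speak of a single control and a single treated bioreactor, so that medium and vessel cannot be told apart and each p-value describes the spread between 3 samples that may share a vessel.

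Hedgehog ligands are secreted proteins that bind Patched (PTCH1) on the receiving cell. Unbound Patched holds the membrane protein Smoothened (SMO) inactive, and its release at the primary cilium lets the GLI transcription factors switch on target genes. PTCH1, HHIP and GLI1 are themselves classical target genes, so their transcripts are widely used as a readout of the pathway, which patterns the ventral neural tube in the embryo. Secreted Hedgehog proteins also bind heparan sulfate, the cell surface polysaccharide to which heparin is closely related.

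Of the 9 genes, 7 were lower in PEG and HS (HHIP, PTCH1, BOC, GLI3, GLI2, GLI1 and CDON), 0 were higher, and SHH and SMO were not called. HHIP, PTCH1 and BOC fell by over 0.5 on the log2 scale, whereas the 3 GLI factors and CDON fell by less. A gene was called at an adjusted p under 0.05 (edgeR, quasi-likelihood F-test, p-values adjusted by Benjamini-Hochberg over the 16505 genes with at least 10 counts in total), and each adjusted p is from this test. The log2 fold change of PEG and HS over Control is given as log2FC ± its SE. By this rule 25.3% of all genes tested were called (higher in 12.2%, lower in 13.1%), against 77.8% of the 9 Hedgehog genes called lower. These shares are not matched for level. Small differences pass more readily in well-counted genes, and 7 of the 9 were over 10 CPM in every library. The 9 genes were also chosen with earlier results of these data known. A call together with a log2 fold change under -0.5 was found in 4.19% of all genes and in 3 of the 9. In 7 of the 9 every PEG and HS library lay below every Control library, which held for 19.8% of all genes. The median log2 fold change was -0.30 over the 9 genes and 0.0031 over all genes tested.

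The libraries held 26991279 to 36185138 counts on genes, of which 9796 to 15262 fell on the 9 Hedgehog genes. Levels are given as CPM (the share of a library's counts on genes, at a fixed total) scaled by TMM factors, so that 1 count was worth 0.0277 to 0.0371 CPM. The counts of replicates spread wider than Poisson error (chi-square over its degrees of freedom 2.61 to 3.6 for the pairs). At most 1.98% of the 31-base words of any of the 9 genes (CDON) occurred in transcripts of another gene, so few reads can be shared with copies. GLI1, BOC, CDON, PTCH1, SMO and HHIP overlap exons of a gene on the other strand (ARHGAP9, CFAP44, VSIG10L2, HHIP-AS1 and unnamed genes). The libraries were stranded, but the use of strand in the counting is not given in the sources used here, and without it the reads of such pairs cannot be told apart.

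PTCH1 and HHIP, the negative regulators with the clearest change, are shown here by the sequence upstream of a transcription start. GLI factors bind short words of DNA, and whether they bear on the change of either gene was not tested. RefSeq promoter windows (GRCh38.p14, 250 bases before to 50 after a start) were on hand for 7 of the 9 genes, 15 windows in all, and none was on hand for GLI1 and GLI3. The GLI binding word GACCACCCA, searched on both strands, was found in 1 of these windows and in 0.236% of the 35116 windows of all genes. That window is 1 of 5 of PTCH1, and the word lies 172 to 164 bases before the start, as its reverse complement. In the PTCH1 sequence the capitals mark the word. The HHIP window is printed for comparison and has no match.
PTCH1, minus strand, chr9:95509267-95509516: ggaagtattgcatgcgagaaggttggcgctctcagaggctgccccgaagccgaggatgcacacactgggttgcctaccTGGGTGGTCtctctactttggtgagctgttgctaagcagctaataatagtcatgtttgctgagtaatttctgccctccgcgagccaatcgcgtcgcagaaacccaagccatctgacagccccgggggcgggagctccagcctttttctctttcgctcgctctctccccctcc
HHIP, plus strand, chr4:144645906-144646155: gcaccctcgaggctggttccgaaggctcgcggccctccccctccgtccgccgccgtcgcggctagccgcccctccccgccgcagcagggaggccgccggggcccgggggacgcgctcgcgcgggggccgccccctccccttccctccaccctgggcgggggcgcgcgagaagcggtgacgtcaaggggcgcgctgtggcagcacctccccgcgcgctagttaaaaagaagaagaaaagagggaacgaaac
Words that differ from GACCACCCA by 1 base were found in 2 further windows of PTCH1, which overlap each other, and in 6.52% of all windows. A match describes these letters only.

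SHH, the ligand, was close to the limit of detection. It had 17, 11 and 15 counts in PEG and HS, against 31, 23 and 8 counts in Control, or 0.504, 0.389 and 0.443 CPM against 1.15, 0.708 and 0.222 CPM. The Control libraries ranged from the highest to the lowest of all 6 libraries and enclosed the PEG and HS libraries. SHH (ENSG00000164690, chromosome 7, 155799980 to 155812463 of GRCh38) was not called (log2FC -0.58 ± 0.47, adjusted p = 0.409), and its 95% interval, from -1.58 to 0.42, spans both directions. The 3 Control libraries of SHH differed by more than counting error (below), and without Control replicate 3 its log2FC was -1.03 (adjusted p = 0.0577). The other ligands had fewer counts than SHH in both media. IHH had 5 counts over the 3 PEG and HS libraries and 8 over the Control libraries, and DHH had 16 and 11.

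PTCH1 (ENSG00000185920, chromosome 9, 95442980 to 95517057), the receptor that restrains SMO, had 50.8, 51.1 and 50.6 CPM in PEG and HS, against 78.2, 83.1 and 82.5 CPM in Control. The PEG and HS libraries sat within 1 CPM of each other, and the media were far apart. The mean was 50.8 ± 0.226 CPM (SD, n = 3) in PEG and HS, against 81.3 ± 2.68 CPM (SD, n = 3) in Control, 1.6-fold higher in Control (log2FC -0.68 ± 0.035, adjusted p = 1.39e-09).

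HHIP (ENSG00000164161, chromosome 4, 144646156 to 144745271), a membrane protein that binds and sequesters Hedgehog ligands, changed most on the log2 scale but was little expressed. It had 27, 24 and 32 counts in PEG and HS, against 47, 69 and 82 counts in Control, which is 0.801, 0.849 and 0.946 CPM against 1.74, 2.12 and 2.27 CPM. All PEG and HS libraries were below 1 CPM and all Control libraries above it. HHIP was 2.37-fold higher in Control (log2FC -1.24 ± 0.21, adjusted p = 0.000371), and its 95% interval, from -1.69 to -0.80, was wide because of the low counts.

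BOC and CDON are related cell surface proteins of the immunoglobulin superfamily that help PTCH1 to bind the ligand. BOC (ENSG00000144857, chromosome 3, 113211003 to 113287459) had 12.2, 12.3 and 12.2 CPM in PEG and HS, against 18.1, 19.0 and 18.0 CPM in Control. The fall was 1.5-fold, with no overlap between the media (log2FC -0.58 ± 0.058, adjusted p = 2.33e-06). CDON (ENSG00000064309, chromosome 11, 125955796 to 126063335) had 30.6, 31.4 and 27.4 CPM in PEG and HS, against 33.8, 33.1 and 33.8 CPM in Control. The media did not overlap, but the nearest libraries were 31.4 and 33.1 CPM. CDON was 1.13-fold higher in Control, the smallest difference among the called Hedgehog genes (log2FC -0.17 ± 0.052, adjusted p = 0.0235). This call was lost without PEG and HS replicate 3 (adjusted p = 0.114), Control replicate 1 (adjusted p = 0.0581) or Control replicate 3 (adjusted p = 0.0635).

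SMO (ENSG00000128602, chromosome 7, 129188633 to 129213545), the membrane protein that passes the signal on, had the highest level per kb of the 9 genes in both media (below). It had 99.3, 99.4 and 103.8 CPM in PEG and HS, against 109.2, 106.7 and 102.9 CPM in Control. PEG and HS replicate 3 lay above Control replicate 3, so the media overlapped. SMO was not called (log2FC -0.074 ± 0.033, adjusted p = 0.12), and its 95% interval, -0.14 to -0.0034 and not adjusted over genes, leaves room only for small differences.

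The GLI factors carry the signal to the genome. GLI1 acts as an activator, GLI3 is best known for its processed repressor form, and GLI2 is the main primary activator. GLI1 (ENSG00000111087, chromosome 12, 57459785 to 57472268) had 27.9, 27.2 and 25.5 CPM in PEG and HS, against 33.1, 32.0 and 30.7 CPM in Control (log2FC -0.25 ± 0.05, adjusted p = 0.00192). GLI2 (ENSG00000074047, chromosome 2, 120735623 to 120992653) had 82.4, 87.2 and 77.5 CPM in PEG and HS, against 98.2, 100.5 and 103.6 CPM in Control (log2FC -0.29 ± 0.04, adjusted p = 5.88e-05). GLI3 (ENSG00000106571, chromosome 7, 41960949 to 42264100) had 40.4, 36.9 and 40.4 CPM in PEG and HS, against 47.9, 47.8 and 49.0 CPM in Control (log2FC -0.30 ± 0.043, adjusted p = 0.000102). All 3 fell by a similar factor, 1.19-fold for GLI1 and 1.23-fold for both GLI2 and GLI3, with no overlap between the media. Per transcript length, GLI2 made up 50.2% ± 1.60 (SD, n = 3) of the summed GLI transcripts in PEG and HS and 50.6% ± 1.10 (SD, n = 3) in Control. The shares of GLI1 were 29.4% ± 0.523 and 28.8% ± 1.23, and those of GLI3 20.3% ± 1.53 and 20.6% ± 0.167, so that the ranges of the 2 media overlapped for all 3 factors. These shares depend on the length used, here the canonical transcript. By it, GLI1, GLI2 and GLI3 had 8.04, 14.1 and 5.74 CPM per kb in Control. Per kb of all annotated exons they had 7.0, 13.05 and 3.50.

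**Figure D1:**
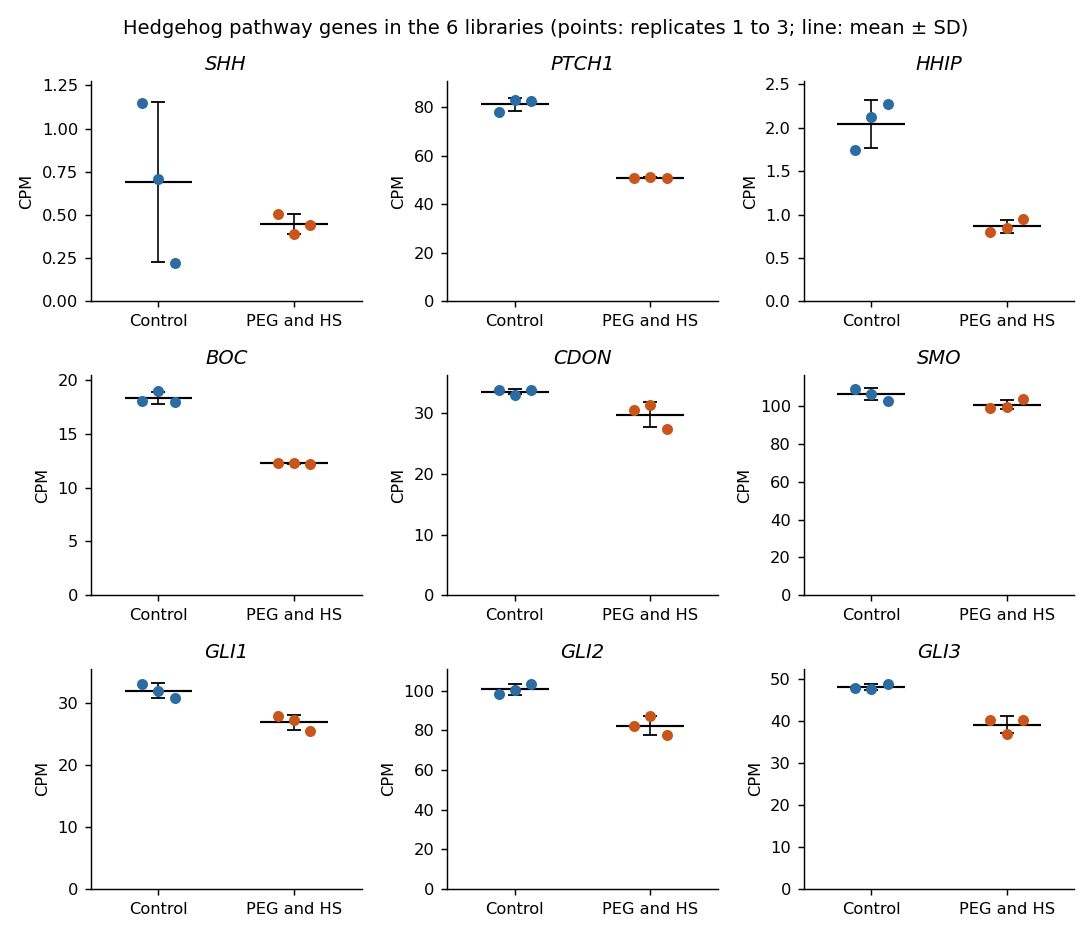
Scaled CPM (y axis, from 0 in each panel) of the 9 Hedgehog genes in Control (blue) and in PEG and HS (orange), with 1 point for each library and the mean ± SD of 3 libraries as lines. The media are separate in 7 panels and overlap for SHH and SMO, with PTCH1 at 50.6 to 51.1 CPM in PEG and HS, against 78.2 to 83.1 CPM in Control.

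Levels of different genes were compared as CPM per kb of the canonical transcript. In Control the order was SMO (26.7 ± 0.789 CPM per kb, SD, n = 3), GLI2 (14.1 ± 0.382), PTCH1 (9.38 ± 0.31), GLI1 (8.04 ± 0.302), GLI3 (5.74 ± 0.0781), CDON (4.06 ± 0.049), BOC (4.01 ± 0.125), HHIP (0.206 ± 0.0275) and SHH (0.149 ± 0.0998). Each gene was above the next in every library, except that CDON and BOC overlapped, as did HHIP and SHH. Per kb of all annotated exons instead, BOC (1.77 CPM per kb) stood above CDON (1.68) in Control without overlap. In PEG and HS, GLI1 (6.76 ± 0.308 CPM per kb) stood above PTCH1 (5.87 ± 0.0261), whereas PTCH1 stood above GLI1 in Control, and no library of either medium had the other order. This exchange depended on the length used: per kb of all annotated exons, GLI1 was above PTCH1 in both media (7.0 and 4.70 CPM per kb in Control, 5.89 and 2.94 in PEG and HS). SHH and HHIP also changed places in PEG and HS, but their libraries overlapped there.

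**Figure D2:**
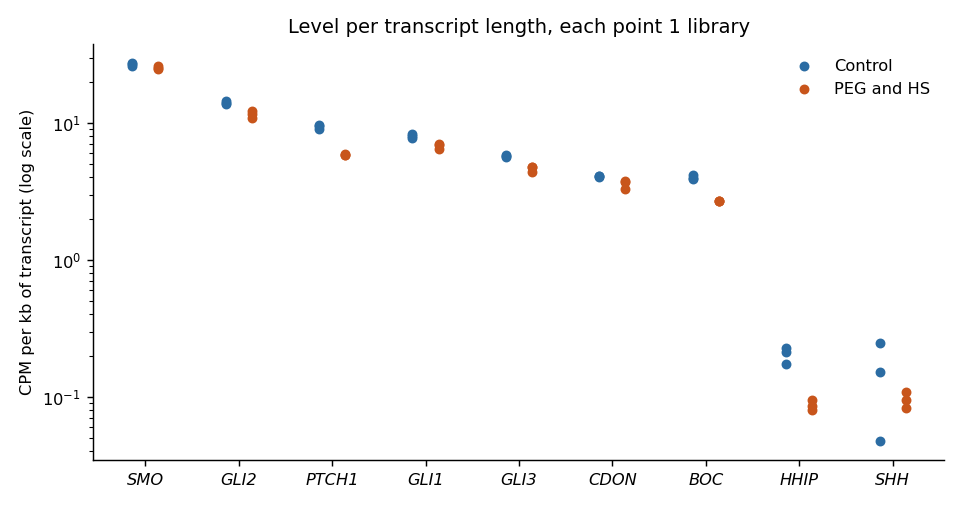
CPM per kb of the canonical transcript (y axis, log scale) of each Hedgehog gene (x axis), with 1 point for each library of Control (blue) and PEG and HS (orange). SMO is highest at 24.96 to 27.4 CPM per kb, and HHIP and SHH lie below 0.25 CPM per kb in all libraries.

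The spread within a medium differed between the genes. In PEG and HS the coefficient of variation of BOC was 0.196% and that of PTCH1 0.444%, below the 5.06% and 2.48% that counting alone gives on average, whereas GLI2 (5.84%) and CDON (7.03%) exceeded their counting error (1.95% and 3.25%). PEG and HS replicate 3 was the lowest of its medium for PTCH1, GLI1, GLI2, BOC and CDON and the highest for SMO, GLI3 and HHIP. In Control the spread of SHH was 66.9%, against a counting error of 22.0%.

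To compare genes without scaling the libraries, the counts of each gene were divided by those of SMO in the same library. PTCH1 had 51.2, 51.4 and 48.8 counts per 100 SMO counts in PEG and HS and 71.6, 77.9 and 80.1 in Control. HHIP had 0.857 ± 0.0523 (SD, n = 3) and 1.93 ± 0.310, and BOC 12.2 ± 0.322 and 17.3 ± 0.655. PTCH1, HHIP, BOC, GLI1, GLI2 and GLI3 stayed separate on this measure, each of the PEG and HS libraries being below all of the Control. For each of these the two-sided exact permutation p was 0.1, the smallest that 3 against 3 libraries can give, or 0.133 adjusted over the 8 genes compared. CDON overlapped between the media on this measure (29.6 ± 2.78 and 31.6 ± 1.08 counts per 100 SMO counts, exact permutation p = 0.4), as did SHH.

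The wider pathway was read from 8 lists of ligand, receptor, cilium, GLI, target and heparan sulfate genes, with 98 genes besides the 9. Of these, 94 were tested, 16 were called lower (17.0%) and 10 higher (10.6%), close to the 13.1% and 12.2% of all genes, and their median log2 fold change was -0.0052. In the receptor list, 6 of 7 genes were called lower, with a median log2 fold change of -0.68, but 4 of these 6 (PTCH1, HHIP, BOC and CDON) are among the 9 described above, and outside them 2 of 3 were called lower. GAS1, a surface protein that helps the ligand to reach PTCH1, had 5.01, 5.63 and 5.29 CPM in PEG and HS, against 10.7, 9.76 and 10.6 CPM in Control (log2FC -0.97 ± 0.083, adjusted p = 4.21e-07). LRP2, a large endocytic receptor that takes up SHH in the forebrain, had 2.16, 1.73 and 2.22 CPM in PEG and HS, against 4.34, 5.29 and 5.63 CPM in Control (log2FC -1.32 ± 0.14, adjusted p = 6.32e-06). Neither gene overlapped between the media.

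Among the 9 genes of ligands and their release, 1 was called lower and 1 higher. SCUBE3, a secreted protein of a family that helps to release the lipid-bearing ligand, had 7.50, 7.93 and 7.06 CPM in PEG and HS, against 13.8, 14.5 and 12.3 CPM in Control (log2FC -0.85 ± 0.08, adjusted p = 1.15e-06). DISP2 was the gene called higher (log2FC 0.43 ± 0.12, adjusted p = 0.0173), a call lost with DESeq2 (adjusted p = 0.0691) and without PEG and HS replicate 3 (adjusted p = 0.0663) or Control replicate 2 (adjusted p = 0.0686). DISP1, which exports Hedgehog proteins from the producing cell, was not called, at 14.1 ± 1.05 CPM (SD, n = 3) and 15.1 ± 0.940 CPM. List genes outside the 9 that are named here without a called log2FC beyond 0.5 in either direction were chosen after their values were seen. DISP2, SUFU, CCND2 and GPC4 are among them. The exception is list genes with under 10 counts, which were named by rule.

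Of the 12 genes of SMO and its partners, 2 were higher and 2 lower by the test. ARRB1, which encodes beta-arrestin 1, an adaptor that binds activated SMO and many other receptors, rose, with 42.4, 42.1 and 44.9 CPM in PEG and HS, against 27.8, 31.6 and 27.4 CPM in Control (log2FC 0.58 ± 0.054, adjusted p = 1.27e-06). SUFU, the main inhibitor that holds GLI proteins in the cytoplasm, fell from 28.0 ± 2.28 CPM (SD, n = 3) in Control to 20.6 ± 0.358 CPM in PEG and HS (log2FC -0.44 ± 0.06, adjusted p = 4.89e-05). KIF7, the cilium tip kinesin of the pathway, was not called, at 30.6 ± 0.818 and 31.4 ± 0.693 CPM. Of the 17 genes of GLI factors and their processing, the 3 GLI genes and 3 others were called lower and 1 higher, and the calls outside the GLI genes, TULP3, GSK3B, CSNK1E and CSNK1A1, had log2 fold changes of -0.20, -0.10, -0.14 and 0.079. The CSNK1A1 call was lost in 7 of the 14 alternatives and the GSK3B call in 3, with adjusted p up to 0.125 and 0.15. The 34 genes of primary cilium assembly and transport, on which Hedgehog signalling depends, had 4 genes called higher and 2 lower, a median log2 fold change of 0.035 and a range from -0.20 to 0.24. Of these 6 calls, CEP290 was lost in 7 of the 14 alternatives, AHI1 in 6 and IFT140 in 3, whereas IFT52, WDR35 and TTC21B kept theirs in all 14.

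The target genes did not move as 1 group. Of the 17 genes listed as raised by Hedgehog signalling, 13 were tested, and those called lower were PTCH1, HHIP and GLI1, all among the 9. Outside the 9, the single call was CCND2, a cyclin of the G1 phase, which was higher in PEG and HS (67.7 ± 2.73 and 50.5 ± 1.58 CPM, log2FC 0.42 ± 0.04, adjusted p = 1.2e-06). NKX2-1, NKX2-2, HAND2 and FOXF1 had under 10 counts over the 6 libraries and were not tested. NKX6-1 (0.305 and 0.374 CPM) and OLIG2 (0.329 and 0.313 CPM) were not called. FOXA2, the floor plate and endoderm factor, was at 1.94 ± 0.0943 and 2.66 ± 0.381 CPM (adjusted p = 0.0609).

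Of the 10 genes listed as lowered by Hedgehog signalling, 6 passed as lower and 0 as higher, with a median log2 fold change of -0.68. Outside the 9 genes described above, 3 of 7 were called lower, against 13.1% of all genes. The median also rests on genes of few counts that were not called. DBX1, PAX3 and DBX2 had 1, 42 and 41 counts over the PEG and HS libraries and 10, 72 and 22 over the Control libraries. BOC, CDON and GLI3 are among the 9, and GAS1 is given above. IRX3, a homeobox gene of the intermediate and dorsal neural tube, had 0.949, 0.637 and 0.827 CPM in PEG and HS, against 3.93, 3.85 and 3.13 CPM in Control (log2FC -2.15 ± 0.19, adjusted p = 6.43e-07). PAX6, a neural progenitor factor, had 1.25, 1.10 and 1.09 CPM in PEG and HS, against 3.04, 3.05 and 1.72 CPM in Control (log2FC -1.17 ± 0.23, adjusted p = 0.0016). Some genes of both lists were lower in the same libraries, PTCH1, HHIP and GLI1 in the raised list and BOC, GAS1 and GLI3 in the lowered list. Others were not called, 9 of the 13 tested in the raised list and 4 of the 10 in the lowered list. Any link of these changes to the activity of the pathway was not tested.

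Heparan sulfate genes were included because Hedgehog ligands bind this polysaccharide. Of the 9 genes in this list, 4 were called lower and 1 higher, against 13.1% and 12.2% of all genes. These shares are not matched for level, and the median log2 fold change of the list was -0.065. GPC3, a glypican that competes with Patched for the ligand, had 43.8, 42.0 and 48.3 CPM in PEG and HS, against 78.9, 79.2 and 77.8 CPM in Control (log2FC -0.81 ± 0.044, adjusted p = 2.48e-09). GPC4, another glypican, fell from 452.8 ± 8.32 to 347.3 ± 5.74 CPM (SD, n = 3; log2FC -0.38 ± 0.026, adjusted p = 3.15e-08). SULF1, which removes sulfate groups from heparan sulfate outside the cell, rose from 20.1 ± 2.02 to 29.6 ± 1.03 CPM (log2FC 0.56 ± 0.066, adjusted p = 1.18e-05). EXT2 and NDST1, which build and modify the chains, were called lower with log2 fold changes of -0.17 and -0.14.

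**Figure D3:**
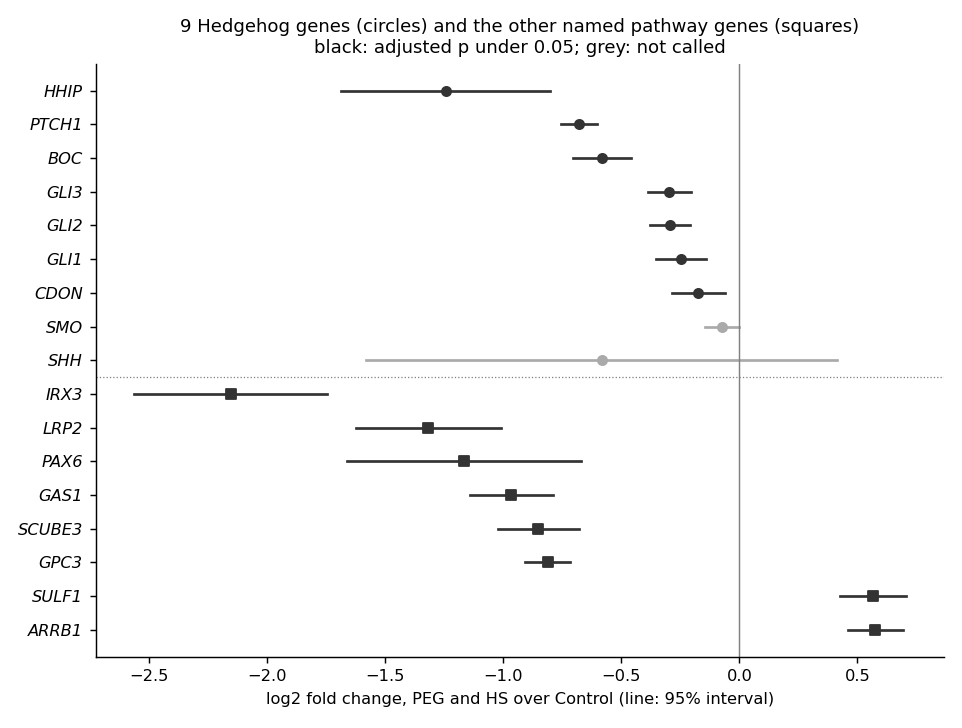
Log2 fold change of PEG and HS over Control (x axis) with its 95% interval for the 9 Hedgehog genes (circles) and for the other list genes called with an absolute log2 fold change over 0.5 (squares), in black where called and grey where not. HHIP is at -1.24, PTCH1 at -0.68 and BOC at -0.58, the grey SHH interval spans 0, and SULF1 and ARRB1 lie to the right of 0.

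**Figure D4:**
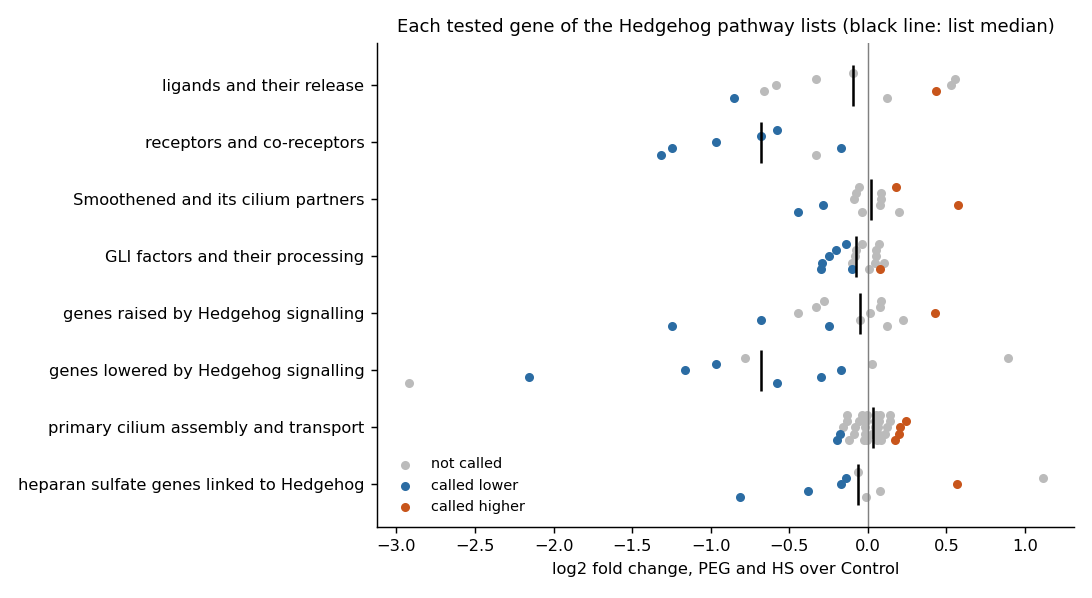
Log2 fold change (x axis) of every tested gene in the 8 pathway lists (rows), in blue where called lower, orange where called higher and grey where not called, with the list median as a black line; vertical offsets within a row only separate points. The medians of the receptor list and of the genes lowered by Hedgehog signalling are both -0.68, but these lists share BOC, CDON and GAS1. The cilium genes lie between -0.20 and 0.24.

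Markers of several cell types were read in the same libraries. The 8 pluripotency genes summed to 8255 to 8534 CPM in PEG and HS, against 8921 to 9105 CPM in Control, so the defining markers of the labelled cell type were present. Of these 8, 2 were called higher in PEG and HS, POU5F1 and NANOG (log2FC 0.23 and 0.55), and 4 lower, SOX2, PODXL, CDH1 and LIN28A (log2FC -0.59, -0.41, -0.39 and -0.30). Of the 8 neural plate and neural progenitor genes, 7 were called lower in PEG and HS, and their sum was 26.7 to 29.0 CPM in PEG and HS, against 82.5 to 91.0 CPM in Control. PAX6 is in this list as well as in the one above. Of 8 floor plate and notochord genes, 7 were tested and 2 were called lower, with sums of 8.33 to 9.63 and 10.6 to 13.2 CPM, and NKX2-2 had no count in 5 of the 6 libraries. Of the 7 neural crest genes, 1 was called higher and 2 lower, of the 7 fibroblast genes 1 higher and 4 lower, of 6 tested trophectoderm and amnion genes 3 lower, and of 7 tested mesoderm and endoderm genes 1 lower. Every marker list held at least 1 gene called lower, and 13.1% of all genes tested were called lower. The mesoderm and endoderm list, with 1 of 7, was close to that share. The median log2 fold change was -1.47 in the neural plate list, -0.74 in the fibroblast list and -0.69 in the trophectoderm and amnion list. It was -0.48 in the neural crest list, -0.45 in the floor plate list, -0.36 in the mesoderm and endoderm list and -0.14 in the pluripotency list. The fibroblast genes nevertheless summed to more in PEG and HS (566 to 599 CPM) than in Control (488 to 526 CPM). Neural crest sums overlapped (106 to 116 and 105 to 110 CPM). Sums were lower in PEG and HS for trophectoderm and amnion (15.8 to 17.5 and 26.8 to 28.5 CPM) and for mesoderm and endoderm (6.47 to 6.69 and 6.83 to 8.65 CPM). Any part of a change in cell types in the fall of the Hedgehog genes was not tested. In bulk RNA, fewer cells that express a gene and less RNA per cell cannot be told apart.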

How the data were processed

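Bulk RNA from NCRM-1 aggregates was sequenced in 6 libraries, 3 for each medium. The authors made stranded libraries from polyadenylated RNA, trimmed the reads with Trim Galore 0.6.7, mapped them to GRCh38 with STAR 2.6.1 and deposited raw counts per Ensembl gene. The counting tool is not given in the sources used here. The study left out low counts and used DESeq2, and that filter is not applied in the deposited counts.

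GENCODE 44 gave names, places and lengths (19916 of 19977 identifiers matched). Genes with at least 10 counts in total were tested with edgeR 4.0.16 in R 4.3.3 (TMM, glmQLFit, glmQLFTest, no covariate). The SE came from the log2 fold change and F (its size divided by the root of F), and 95% intervals use the t quantile of the fit. The scripts were tested on simulated counts. The 9 genes, the lists and the tests were chosen with earlier results of these data known. Named list genes were those called with an absolute log2 fold change over 0.5, at most 5 a list and direction, with 1 CPM or more throughout the higher medium, and list genes with under 10 counts. The common BCV (biological coefficient of variation) was 3.12%, so small differences pass in well-counted genes. SHH, with few counts and a spread of 66.9% in Control, was not called at a log2 fold change of -0.58. Alternatives were DESeq2 1.42.0, limma-voom (limma 3.58.1), other normalizations and filters, the replicate number as a block and each library left out. The values of 1 list gene are not reported here.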

Additional observations from a re-analysis of the deposited data

How the results depend on the processing

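Of the 9 Hedgehog genes, 7 were called lower with edgeR, DESeq2, limma-voom, the 3 other normalizations, both other filters and the replicate block, and 6 to 7 with a library left out, the difference being CDON. HHIP ranged from -1.34 to -1.16 (log2 fold change), PTCH1 from -0.71 to -0.66, BOC from -0.60 to -0.56, GLI2 from -0.33 to -0.25, GLI3 from -0.32 to -0.26, GLI1 from -0.28 to -0.21 and CDON from -0.21 to -0.12 over the 14 alternatives. SMO and SHH were called in none of them (adjusted p from 0.0633 to 0.299 and from 0.0577 to 0.969), and SHH ranged from -1.03 to -0.038. Of the 98 other pathway genes, 15 to 16 were called lower and 6 to 9 higher with a library left out, the lowest number higher (6) without Control replicate 2, against 16 and 10 with all libraries. Over all genes, 1453 to 1751 were called higher and 1661 to 1938 lower with a library left out. The replicate block gave 2187 higher and 2257 lower over all genes and changed no call of the 9 genes; the deviations of same-numbered samples correlated by -0.0147, 0.0277 and 0.0596, so the numbers were not taken as pairs. The median of all genes moved by less than 0.02 under every scaling. SHH had 43 and 62 counts and HHIP 83 and 198 counts over the 3 libraries of PEG and HS and of Control, which limits their precision, and SHH also varied between the Control libraries beyond counting error. Of the calls among the other pathway genes, those of DISP2, GSK3B, CSNK1A1, CEP290, AHI1, IFT140 and IQCE were lost under at least 2 alternatives, and the others under none.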

Other observations

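Among the 10069 genes with a mean of at least 10 CPM, those whose log2 CPM followed PTCH1 most closely over the 6 libraries were GJA1 (Pearson's r = 0.9997), which encodes the gap junction protein connexin 43, NYNRIN (0.9994) and MMP24 (0.9992), a membrane-type matrix metalloproteinase. GJA1 averaged 713 CPM in PEG and HS, against 1085 CPM in Control, NYNRIN 83.7 and 109.8 CPM, and MMP24 20.9 and 68.5 CPM. All 3 were lower in PEG and HS by factors that differ from that of PTCH1. The r values describe 6 libraries that fall into 2 media, so any gene with a clear difference between the media and little spread within them reaches a high r.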
